A study of Mus musculus with 2756 samples.

Results

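The cadherin superfamily of the developing mouse neocortex is described here across progenitors, newborn neurons and maturing neurons. Its members were taken by gene symbol, as every symbol of the deposited count table that starts with Cdh or Pcdh followed by a digit or by a, b or g, or with Celsr, Fat1, Fat3, Fat4 or Dchs. That gave 66 of 16441 genes, which together took 0.149% of all counts. Of these, 30 lie outside the protocadherin gene clusters and 36 belong to the Pcdha (3 genes), Pcdhb (19) and Pcdhg (14) clusters. The rule itself uses no measured value, but it was set with earlier results of these data known. Levels are given as CPM, the counts of a gene summed over cells and scaled to the depth of the sum, and 21 members, 20 of them clustered protocadherins, stayed under 10 CPM in every one of the 15 cell clusters.

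The study followed cells born at the same moment. Mouse embryos received FlashTag at E12, E13, E14 or E15, a dye taken up by progenitors that touch the ventricle while in mitosis. Cells of the putative primary somatosensory cortex were collected 1 h, 24 h or 96 h later. The dissociated cells were sorted for the brightest dye signal and their RNA was amplified and sequenced cell by cell on microfluidic chips. No strain, genotype or animal is named and no allele or agent other than the dye is given, so each of the 12 conditions (4 days at 3 times) counts as 1 sample and cells were never used as replicates. The sort keeps only strongly labelled cells, so each condition is a selected part of the tissue.

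The submitters placed the cells in 15 clusters. AP clusters are apical progenitors, BP basal progenitors, N1d and N4d neurons found mainly 1 day and 4 days after labelling, IN inhibitory neurons and Astro astrocytes. For the excitatory lineage sums, counts were added up within a condition over all its cells of the progenitor and excitatory neuron classes (AP, BP, N1d, N4d). At 1 h, 90.4% of these cells were AP, at 24 h 69.3% were N1d and at 96 h 93.1% were N4d. A comparison between times is therefore also a comparison between cell classes, and in a sum a smaller share of cells with a gene and less RNA per cell cannot be told apart. The sample titles carry codes that are taken here to mark a run or chip, which the labels do not state. Each code holds a single collection time, so time and code cannot be told apart either.

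Classical cadherins join neighbouring cells through their outer domains and hold the actin skeleton through catenins. In the cortex they build the belt of junctions at the ventricular surface that keeps radial glia attached, and migrating neurons use them again on their way to the cortical plate. Protocadherins have other inner domains: the delta protocadherins act as single adhesion and signalling proteins, while the clustered ones are expressed in varied combinations that help a neuron tell its own branches from those of others. The Celsr (flamingo) proteins and the giant Fat and Dachsous cadherins carry planar polarity signals between cells.

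Depth was 52.3 M to 99.04 M counts a condition, with a median of 328910 counts a cell. The classes were checked against marker lists. The 8 AP markers summed to 2405 to 5676 CPM in the 1 h lineage sums, 1130 to 3322 CPM at 24 h and 392 to 1098 CPM at 96 h. The 6 markers of maturing excitatory neurons summed to 75.9 to 337 CPM at 1 h, 1232 to 2023 CPM at 24 h and 3532 to 6315 CPM at 96 h. Markers of microglia and meninges stayed low in the lineage sums. The 3 microglial markers were at or under 3.8 CPM in sum and the 2 meningeal ones at or under 5.63 CPM. Other lists differed between clusters. The 3 markers of Cajal-Retzius cells summed to 90.1 CPM in N1d.early and 50.9 CPM in N1d.late. They summed to 0.542 to 4.44 CPM in AP clusters and 9.41 to 33.9 CPM in N4d clusters. The 6 astrocyte markers summed to 315.6 to 1090 CPM in AP clusters, against 82.7 CPM in N1d.early and 66.1 CPM in N1d.late. The part of these lists in the changes was not tested. The 6 IN markers also moved with time. They summed to 80.5 to 207.5 CPM at 96 h, against 3.003 to 7.86 CPM at 24 h and 0.695 to 32.4 CPM at 1 h, with all 6 present at 96 h, and their part in the changes at 96 h was not tested. No 2 cells had identical counts.

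Upstream sequence is shown for 3 members called between collection times. RefSeq's table for GRCm38.p6 held a promoter for 22 of the 66 members. Printed are the 250 bases before the annotated start, 5′ to 3′ on the gene's strand, with the motif in capitals. Celsr3 (chr9:108825795-108826044, plus strand), the flamingo gene that was near absent from AP cells, carries TTCAGCACCNNGGNCAGC, the RE1 element bound by REST, a repressor of neuronal genes in cells that are not neurons. Searched on both strands, this motif was in 4 of the 32851 promoters of the table (0.0122%), and its left part TTCAGCACC, which it contains, was in 0.301%.
Celsr3: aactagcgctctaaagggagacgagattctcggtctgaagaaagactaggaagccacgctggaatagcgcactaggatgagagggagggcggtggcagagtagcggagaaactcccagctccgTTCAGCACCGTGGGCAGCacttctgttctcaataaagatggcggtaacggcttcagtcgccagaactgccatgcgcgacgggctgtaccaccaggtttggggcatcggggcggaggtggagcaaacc
Pcdh19 (chrX:133688994-133689243, minus strand) and Pcdh18 (chr3:49757317-49757566, minus strand), delta-2 protocadherins that fell between collection times, share a run of 12 bases with an inverted CCAAT box, AGCCAATCAGCG on the other strand. This run was defined as the longest with a CCAAT box that both sequences share, so both hold it by definition. It was in 0.17% of the promoters searched on both strands, and the short form CCAAT, which it contains, in 33.8%. The 0.17% is therefore no measure of how unusual the match is.
Pcdh19: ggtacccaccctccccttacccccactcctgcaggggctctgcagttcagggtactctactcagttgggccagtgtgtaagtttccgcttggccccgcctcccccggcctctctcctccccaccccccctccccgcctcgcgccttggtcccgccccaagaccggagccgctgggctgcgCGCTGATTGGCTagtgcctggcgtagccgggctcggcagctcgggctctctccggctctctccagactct
Pcdh18: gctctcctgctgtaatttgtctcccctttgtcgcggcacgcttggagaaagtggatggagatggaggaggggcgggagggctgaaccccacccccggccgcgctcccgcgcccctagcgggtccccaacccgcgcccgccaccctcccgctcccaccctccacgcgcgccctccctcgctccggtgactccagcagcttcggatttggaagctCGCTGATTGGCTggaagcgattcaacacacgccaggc
These motifs were picked after the sequences had been read, and a match describes letters only.

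The first question was how the family changes as labelled progenitors become neurons. Lineage sums of the 12 conditions were compared in edgeR's quasi-likelihood test, with injection day in the fit, and a member counts as called at an adjusted p under 0.05 over all 10210 genes tested. Of the 66 members, 28 had at least 10 CPM in at least 3 sums and were tested. The 38 others were mostly clustered protocadherins, and outside the clusters they were Cdh6, Cdh7, Cdh20, Cdh22, Cdh24, Pcdh1, Pcdh11x, Pcdh15 and Pcdh20. Between 24 h and 1 h, 9 members were called, 7 higher and 2 lower at 24 h, against 19.2% of all genes called (11.4% higher and 7.76% lower). Between 96 h and 24 h, 8 were called, 6 higher and 2 lower at 96 h, against 24.2% of all genes (11.7% higher and 12.5% lower). The filter keeps members that are high at any of the times, so these shares are not a property of the family. The median log2 change of the members tested was 1.07 for 24 h against 1 h and 0.76 for 96 h against 24 h, beside medians of -0.0032 and -0.027 over all genes tested.

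With whole lineage sums replaced by the main class of each time, N1d cells for 24 h and AP cells for 1 h, 17 of 29 members tested were called, 15 higher and 2 lower in N1d cells, against 31.9% of all genes (16.6% higher and 15.2% lower). The 9 members called from lineage sums were all among them. The added ones were Cdh4, Cdh10, Cdh12, Dchs1, Pcdh9, Pcdhb17, Pcdhb22 and Pcdhgc4. Between N4d cells at 96 h and N1d cells at 24 h 8 members were called, 5 higher and 3 lower in N4d cells, against 17.2% of all genes. Of these, 6 were also called from lineage sums, Cdh4 and Fat1 were added, and Cdh2 and Cdh11 were not called.

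**Figure D1:**
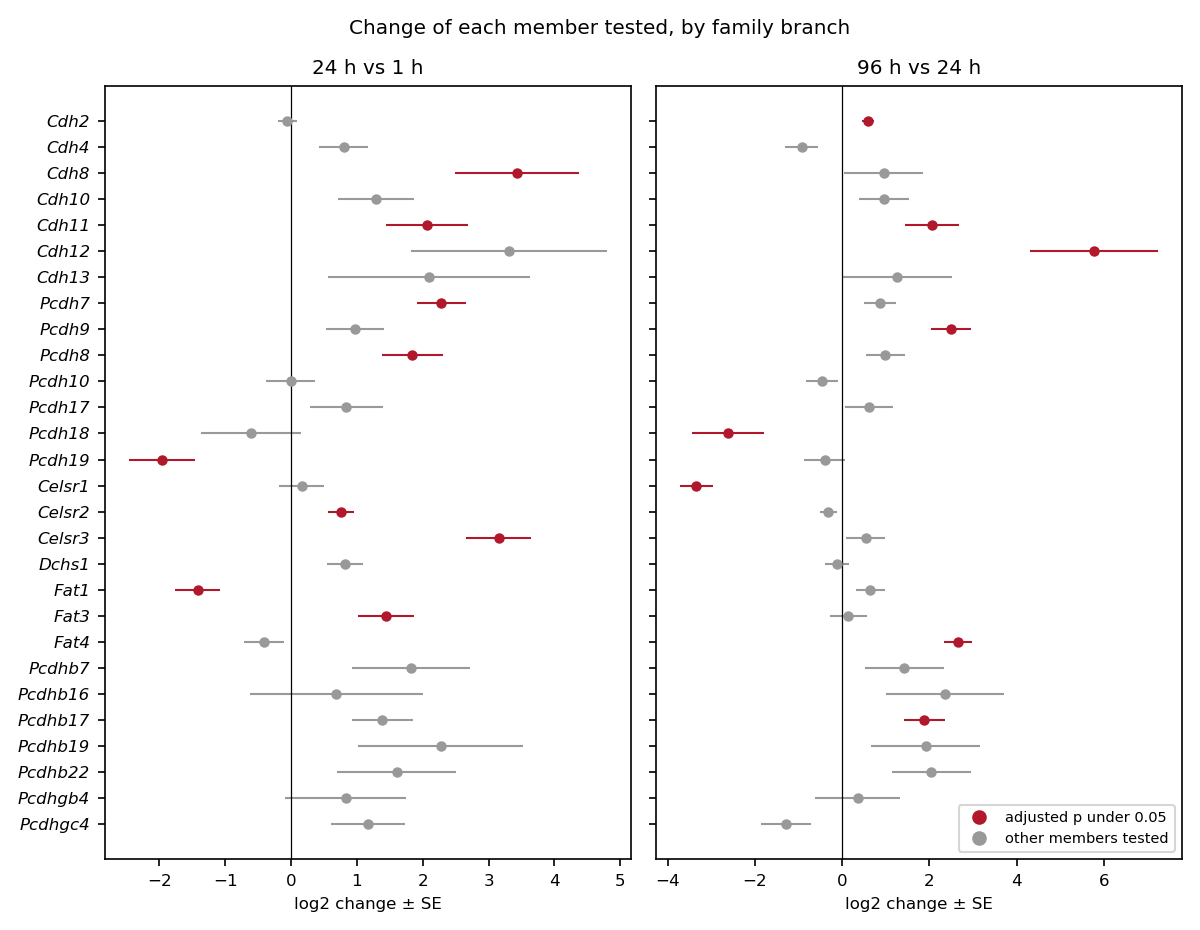
Log2 change of each of the 28 members tested (points, with SE as bars) between 24 h and 1 h on the left and between 96 h and 24 h on the right, ordered by branch of the family; positive values are higher at the later time. Red points are the 9 and 8 members called, and Cdh11 is the one that is red and positive in both panels.

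The flamingo genes changed in different directions. Celsr3, which guides long forebrain axon tracts, had 37.1, 57.8, 27.3 and 30.6 CPM at 24 h for E12, E13, E14 and E15, against 3.77, 1.28, 4.66 and 7.36 CPM at 1 h. Every 24 h sum was above every 1 h sum, and the log2 change of 3.16 ± 0.50 (SE) passed the test (adjusted p = 0.0008). Celsr3 reads were seen in 40.8% of 633 N1d cells at 24 h, against 3.50% of 715 AP cells at 1 h, at median depths of 330300 and 319300 counts a cell. In older neurons Celsr3 was not called against 24 h (log2 change 0.54 ± 0.45, adjusted p = 0.409), with 63.2, 48.3, 74.1 and 28.2 CPM at 96 h, a range that overlaps the one at 24 h.

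Celsr1, a planar polarity gene of progenitors, followed the opposite course. Its 1 h sums held 70.6, 128.4, 164.9 and 168.8 CPM and its 24 h sums 151.2, 135.4, 120.5 and 164.02 CPM, which overlap. At 96 h it fell to 6.81, 18.9, 7.01 and 25.4 CPM, so that all sums at 96 h lay far under all sums at 24 h. The log2 change for 96 h against 24 h was -3.35 ± 0.38 (adjusted p = 8.8e-05), and it held in each setting tried. Reads of Celsr1 (chr15:85898929-86033777, GRCm38, from GENCODE vM21, as are the later gene positions) were found in 553 of 715 AP cells at 1 h, 404 of 633 N1d cells at 24 h and 88 of 693 N4d cells at 96 h. Celsr2, the remaining flamingo gene, had 100.6, 113.3, 105.3 and 90.3 CPM at 24 h, against 62.9, 67.7, 53.5 and 53.8 CPM at 1 h. The groups did not overlap, and the log2 change of 0.76 ± 0.20 passed the test (adjusted p = 0.0167).

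**Figure D2:**
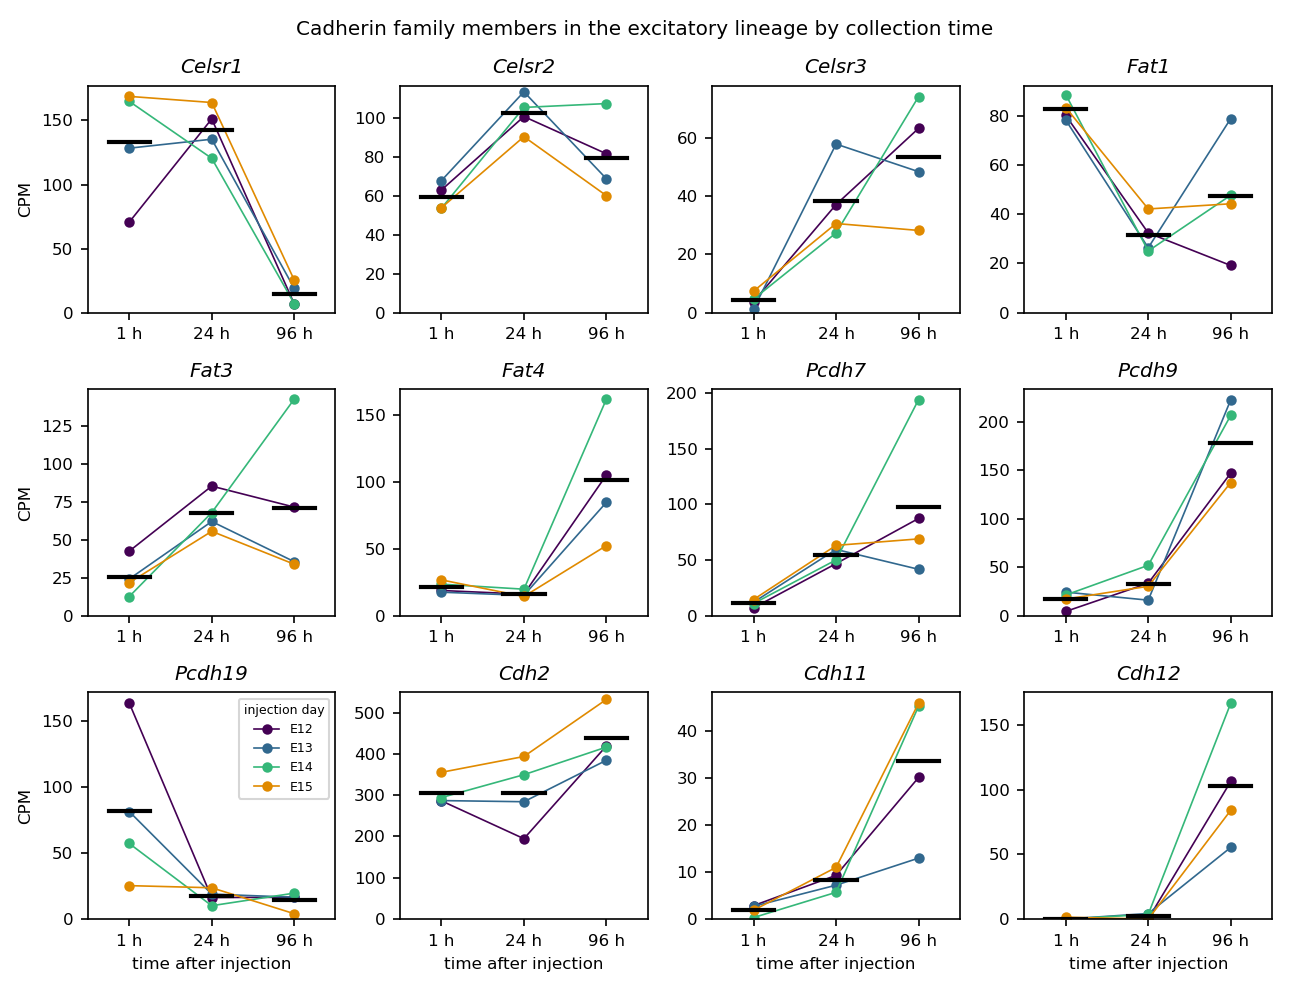
CPM of 12 members in the excitatory lineage sums at 1 h, 24 h and 96 h; points are conditions, coloured and joined by injection day, and black bars are means of the 4 days. Celsr1 is the panel that drops at 96 h, while Celsr3 is near 0 at 1 h and Cdh12 and Fat4 are low until 96 h.

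Among the giant cadherins, Fat4 and Dchs1 are known as a receptor and ligand pair that binds between cells. Fat4 (chr3:38886940-39011985) had 105.04, 84.7, 161.7 and 52.4 CPM at 96 h, against 16.2, 15.3, 19.9 and 14.5 CPM at 24 h. The lowest sum at 96 h stood well above the highest at 24 h, and the log2 change was 2.66 ± 0.32 (adjusted p = 0.000144). Fat4 was read in 63.2% of 693 N4d cells, against 17.7% of 633 N1d cells. Its partner Dchs1 was not called in either step. It had 67.7, 69.6, 84.9 and 93.7 CPM at 24 h, against 30.3, 56.5, 27.6 and 62.3 CPM at 1 h, without overlap. That difference, a log2 of 0.82 ± 0.28, missed the threshold (adjusted p = 0.0558). In N1d cells against AP cells alone, the Dchs1 log2 change was 1.22 (adjusted p = 0.00777).

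Fat1, a giant cadherin of apical junctions, and Fat3, known from the dendrites of retinal neurons, moved apart. Fat1 fell to 32.4, 26.4, 25.1 and 42.2 CPM at 24 h, against 80.2, 78.4, 88.8 and 83.5 CPM at 1 h, a log2 change of -1.42 ± 0.34 (adjusted p = 0.0105). The 1 h sums were close to each other, and all of them lay above all sums at 24 h. Fat3 rose to 85.3, 62.1, 67.9 and 55.6 CPM at 24 h, against 42.6, 24.3, 12.7 and 21.8 CPM at 1 h, a log2 change of 1.44 ± 0.43 (adjusted p = 0.0318). The Fat3 groups were separate on all 4 days, yet the call is fragile: leaving out any single 24 h sum, or the E13, E14 or E15 sum at 1 h, put the adjusted p between 0.0535 and 0.0878, with log2 changes of 1.20 to 1.50. Fat1 was not called between 96 h and 24 h from lineage sums, whereas in N4d against N1d cells alone its log2 change was 1.50 (adjusted p = 0.0112).

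Pcdh7 and Pcdh9, the delta-1 protocadherins tested, were each called in 1 step from lineage sums. Pcdh7 had 46.8, 59.5, 50.2 and 63.2 CPM at 24 h, against 7.18, 12.2, 11.1 and 14.7 CPM at 1 h. Sums at 24 h were all above those at 1 h (log2 change 2.29 ± 0.38, adjusted p = 0.00115). At 96 h Pcdh7 spread widely, with 87.3, 41.7, 193.8 and 69 CPM, and its further log2 change of 0.87 ± 0.36 was not called (adjusted p = 0.0956). Pcdh9 was called in the later step, with 147.3, 222.9, 206.8 and 137.5 CPM at 96 h, against 33.7, 16.2, 52.1 and 30.5 CPM at 24 h. Its groups were well apart, at a log2 change of 2.49 ± 0.46 (adjusted p = 0.0021), and reads were seen in 503 of 693 N4d cells. With main classes alone Pcdh9 was called in both steps. Its log2 change was 1.54 in N1d against AP cells (adjusted p = 0.0178) and 2.11 in N4d against N1d cells (adjusted p = 0.0076).

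Of the delta-2 protocadherins, Pcdh8 rose, and Pcdh19 and Pcdh18 fell at different steps. Pcdh19, an X-linked gene known for its part in human epilepsy, had 16.3, 18.9, 10.1 and 23.7 CPM at 24 h, against 163.8, 81.5, 57.3 and 25.4 CPM at 1 h. The groups just failed to meet, with the E15 sum at 1 h the lowest of its group. The log2 change was -1.96 ± 0.50 (adjusted p = 0.0156). Without the E12 sum at 24 h it was -1.62 (adjusted p = 0.0729) and without the E13 sum at 24 h -1.90 (adjusted p = 0.0506). Pcdh19 reads were present in 56 of 633 N1d cells at 24 h and in 362 of 715 AP cells at 1 h.

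Pcdh8, whose protein is induced by synaptic activity in mature neurons, had 17.5, 40.7, 38.6 and 29.7 CPM at 24 h, against 2.86, 3.04, 16.7 and 21.5 CPM at 1 h. It was higher at 24 h on each day, although the E12 sum at 24 h lay under the E15 sum at 1 h. The log2 change was 1.84 ± 0.47 (adjusted p = 0.0145), and 1.47 (adjusted p = 0.0608) without the E12 sum at 1 h. Pcdh18, whose protein binds the reelin signal adaptor Dab1, fell to 0.193, 3.83, 0.642 and 13.8 CPM at 96 h, against 16.3, 15.7, 19.7 and 33.2 CPM at 24 h. The E15 sum at 96 h was the highest of its group and still under all sums at 24 h. Its log2 change of -2.62 ± 0.83 (adjusted p = 0.036) lost the call when any single sum at 24 h, or the E12, E13 or E14 sum at 96 h, was left out, with adjusted p between 0.0534 and 0.0789. Pcdh10, which links to the actin-nucleating WAVE complex, and Pcdh17 were not called in either step.

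Of the 2 type I classical cadherins, Cdh2 (N-cadherin), the main junction protein of radial glia, was read in nearly all cells: 676 of 693 N4d cells and 692 of 715 AP cells. Cdh2 had 419, 385, 417 and 532 CPM at 96 h, against 194.7, 284.2, 350 and 394 CPM at 24 h. It was higher at 96 h on each of the 4 days, while the groups overlapped. The change was small, with a log2 of 0.59 ± 0.15 (adjusted p = 0.0114), and in N4d against N1d cells alone it was 0.50 (adjusted p = 0.0588). Between 24 h and 1 h Cdh2 was not called. Cdh4 (R-cadherin) had 44.6, 26.3, 69.8 and 131.04 CPM at 96 h, against 48.2, 170.3, 105.5 and 180.5 CPM at 24 h; its log2 change of -0.93 ± 0.37 missed the threshold (adjusted p = 0.0831), and in N4d against N1d cells it was -1.28 and passed (adjusted p = 0.0321).

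Type II classical cadherins mark subsets of neurons and their circuits. Their sum averaged 28.6 CPM in AP cells at 1 h, 147.4 CPM in N1d cells at 24 h and 269.9 CPM in N4d cells at 96 h. AP cells at 24 h averaged 65.9 CPM, with 59 CPM at E12 against 45 CPM in N1d cells of that day. Single genes also went the other way. Cdh7 was highest in BP.late (12.6 CPM) and Cdh6 in AP.late (12 CPM). Cdh8 went with the sum and was highest in N1d.late (126.2 CPM), though it already had 36 CPM in BP.late. Of the 9 type II genes 4 were tested, and Cdh8, Cdh11 and Cdh12 were called in at least 1 step. Cdh8 had 14.1, 44.2, 92.6 and 84.3 CPM at 24 h, against 0, 2.37, 11.8 and 12.3 CPM at 1 h. The groups were separate, with the smallest values for E12 in both, and the log2 change was 3.44 ± 0.94 (adjusted p = 0.0213). It stood at 3.21 (adjusted p = 0.0629) without the E13 sum at 1 h, at 3.13 (adjusted p = 0.0597) without the E14 sum at 24 h, and at 3.03 (adjusted p = 0.0578) with IN and Astro cells included. In AP cells at 1 h a single cell gave 48.8% of all Cdh8 reads.

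Cdh12 was the neuronal cadherin with the steepest increase among the members called. It had 106.2, 55.3, 166.6 and 84 CPM at 96 h, against 0.212, 4.28, 3.67 and 0.0102 CPM at 24 h. No sum at 24 h came near any at 96 h, and the log2 change was 5.78 ± 1.47 (adjusted p = 0.0125). Reads of Cdh12 (chr15:20449265-21589533) were found in 344 of 693 N4d cells at 96 h, against 17 of 633 N1d cells at 24 h, and in those N1d cells 27.1% of the reads came from a single cell.

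Cdh11 was called in both steps at low levels. It had 2.86, 2.72, 0.323 and 1.89 CPM at 1 h, 9.32, 7.22, 5.70 and 11 CPM at 24 h and 30.2, 13, 45.4 and 46 CPM at 96 h. No sum of a later time was under a sum of an earlier one. The log2 change was 2.06 ± 0.62 in each step, with adjusted p = 0.0335 for 24 h against 1 h and 0.0282 for 96 h against 24 h. Leaving out single sums ended the first call in 4 cases (E15 at 1 h, and E12, E13 or E15 at 24 h; adjusted p 0.0575 to 0.0909) and the second in 7 (any sum at 24 h, and E12, E14 or E15 at 96 h; adjusted p 0.0522 to 0.0771). Its log2 change in N4d against N1d cells was 1.63 (adjusted p = 0.0749).

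The clustered protocadherins were low one by one, and their counts are uncertain because the genes of a cluster are near copies and the Pcdha and Pcdhg genes share their last exons. As a sum, the 19 Pcdhb genes had 17.1, 12.8, 19 and 27.4 CPM at 1 h, 32.2, 68.4, 61.8 and 48.9 CPM at 24 h and 202.5, 121.7, 250.6 and 193.98 CPM at 96 h. The 3 times did not overlap, with the E13 sum at 96 h the lowest of its group. The 14 Pcdhg genes had 13.5 to 25.7 CPM at 1 h, 27.2 to 55.04 CPM at 24 h and 25.03 to 51.6 CPM at 96 h, and the 3 Pcdha genes stayed at or under 14.1 CPM in all sums. At 96 h the highest single genes by mean were Pcdhb17 (29.6 ± 8.98 CPM), Pcdhb7 (22.3 ± 13.5 CPM) and Pcdhb19 (19.54 ± 11.9 CPM; SD, n = 4 each).

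Among the clustered genes only Pcdhb17 was called from lineage sums. It had 25.6, 19.4, 33.7 and 39.8 CPM at 96 h, against 7.32, 11.1, 3.70 and 10.4 CPM at 24 h. The groups were separate, and the log2 change was 1.89 ± 0.48 (adjusted p = 0.0124).

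**Figure D3:**
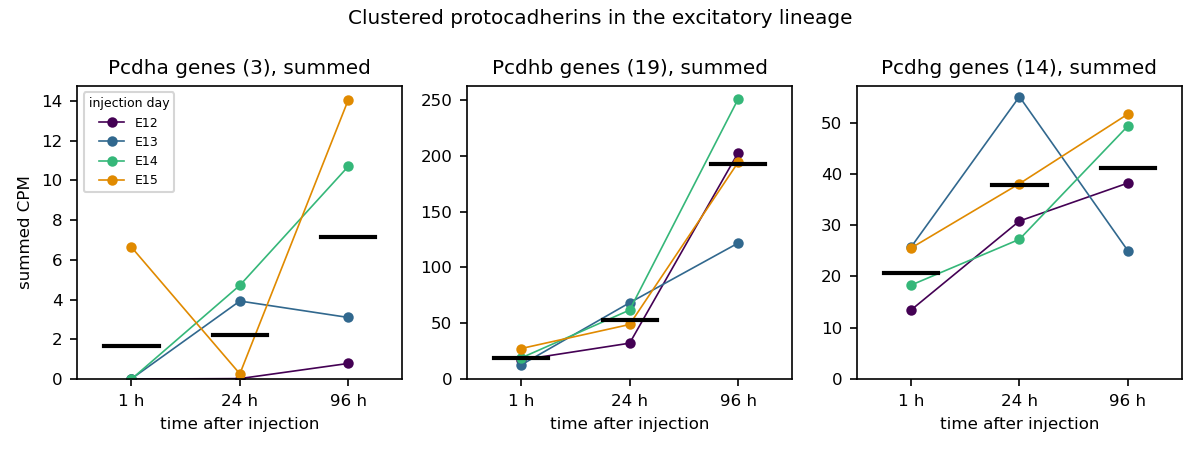
Summed CPM of the 3 Pcdha, 19 Pcdhb and 14 Pcdhg genes in the lineage sums at 1 h, 24 h and 96 h; points are conditions, coloured and joined by injection day, and black bars are means. The Pcdhb sum lies between 12.8 and 27.4 CPM at 1 h and between 121.7 and 250.6 CPM at 96 h.

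Genes that work with cadherins were read from a list of catenins, planar polarity, actin and promoter-choice genes, of which 46 were in the table. Of 37 tested, 10 were called between 24 h and 1 h (3 higher and 7 lower at 24 h), against 19.2% of all genes (11.4% higher and 7.76% lower). Between 96 h and 24 h 14 were called (9 higher and 5 lower at 96 h), against 24.2% of all genes (11.7% higher and 12.5% lower). The alpha-catenins, which tie classical cadherins to actin, moved in opposite directions. Ctnna2, the neuronal form, averaged 80.35 ± 8.15 CPM at 24 h and 18.9 ± 9.41 CPM at 1 h (adjusted p = 0.000234), and 173.2 ± 17.7 CPM at 96 h. Ctnna1, the epithelial form, averaged 126.7 ± 36.7 CPM at 24 h and 269.5 ± 56.7 CPM at 1 h (adjusted p = 0.00916), and 36.4 ± 11.7 CPM at 96 h (SD, n = 4 each). Dab1, the adaptor of the reelin receptors, averaged 609 ± 36.7 CPM at 96 h and 92.9 ± 33.3 CPM at 24 h (log2 change 2.80, adjusted p = 1.2e-05). Of the others, beta-catenin (Ctnnb1) averaged 352 ± 107.9 CPM at 96 h and 703 ± 72.9 CPM at 24 h (adjusted p = 0.0007), and the planar polarity gene Vangl2, which acts with Celsr1, 65.1 ± 16.2 CPM at 96 h and 137.2 ± 30.6 CPM at 24 h (adjusted p = 0.00639). Cyfip2 and Abi2 of the WAVE complex rose at 24 h and 96 h in turn, at log2 changes of 0.98 and 1.23 (adjusted p = 0.00593 and 0.000314).

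The 24 h conditions hold AP, BP and N1d cells side by side, so the step between classes can be read within a condition, free of collection time. The clusters were made from the expression of these same cells, members included, and sums were small, from 8 to 78 BP cells and from 14 to 44 AP cells a day. Between BP and AP cells none of 23 members tested was called in edgeR, against 1.0% of 9969 genes. At an unadjusted p under 0.05 in edgeR there were 3 members, against 12.35% of all genes. DESeq2 called 1, Celsr3, and for this and later DESeq2 calls no share over all genes is given. Celsr3 had 17.5, 31.6, 1.25 and 20.2 CPM in BP cells and 0.948, 0.839, 2.39 and 1.96 CPM in AP cells. BP cells were higher on each day but E14, where only 8 BP cells were sampled, and with sums of at least 20 cells Celsr3 was called.

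Celsr1 was the member called between N1d and BP cells. In N1d cells it had 109.3, 91.7, 83.1 and 131.95 CPM, against 217.6, 218.7, 553 and 261.4 CPM in BP cells of the same conditions and 171.4, 229.4, 158.2 and 157.9 CPM in AP cells. All N1d sums were under all BP sums. The log2 change for N1d against BP was -1.53 ± 0.33 (adjusted p = 0.0281), 1 call among 23 members tested, against 3.44% of all genes. Leaving out any injection day ended that call (adjusted p 0.0778 to 0.113), and without E14, whose BP value was far above the others, the log2 change was -1.07.

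Other members were not called but were separated between N1d and BP cells. Pcdh7 had 69.6, 84.5, 67.5 and 111.6 CPM in N1d cells, against 17, 7.87, 0.498 and 5.83 CPM in BP cells (log2 change 3.78 ± 0.96, adjusted p = 0.0591). Fat3 had 137.4, 74.7, 83.8 and 92.6 CPM in N1d cells, against 14.2, 27.6, 4.24 and 11.8 CPM in BP cells (3.05 ± 0.90, adjusted p = 0.1025). In both genes each N1d sum was above each BP sum. DESeq2 called 6 members here, Celsr1, Cdh8, Fat3, Pcdh7, Pcdh9 and Pcdhgc4.

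The second question of the design was whether the family shifts with the day of birth. Slopes on injection day, in log2 units a day, were fitted within the main class of each time, AP for 1 h, N1d for 24 h and N4d for 96 h. None of 29 members tested was called for any of the 3 slopes or for the difference between them in edgeR. In turn, 5, 4, 3 and 6 members had an unadjusted p under 0.05, against 10.2%, 12.8%, 7.88% and 9.77% of all genes. DESeq2 called 2, 2, 1 and 0 members. The share of all genes called in edgeR was 0.991% for AP, 0.383% for N1d, 0.049% for N4d and 0.216% for the difference. At 4 days a slope this test can call is thus rare throughout. The levels themselves were ordered in several members.

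In AP cells Pcdh19 had 164.6, 83.2, 53 and 30.6 CPM from E12 to E15, lower on each later day (slope -0.81 ± 0.33, adjusted p = 0.411). Celsr1 ran the other way with 73, 129.2, 165.4 and 177.99 CPM. Pcdh8 (1.39, 3.15, 17.8 and 13.8 CPM) and Pcdh17 (3.13, 19.4, 15.7 and 32.9 CPM) were lowest at E12. The Pcdh8 slope of 1.30 ± 0.31 was not called (adjusted p = 0.0939), but DESeq2 called it, as did edgeR without the E14 or the E15 sum. Cdh8, at a mean of 3.35 CPM in AP cells, had a slope of 1.88 ± 0.73 (adjusted p = 0.378) that was called by DESeq2 and without the E15 sum, and a single cell gave 48.8% of its AP reads at 1 h. Pcdh8 and Pcdh17, both delta-2 genes, were thus low where Pcdh19, of the same branch, was high. Of the AP cells of E12 at 1 h, 95.03% were in the AP.early cluster, so day and cluster move together.

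In N1d cells Cdh2 had 193.2, 279.2, 375 and 454 CPM from E12 to E15, higher on each later day. That slope, 0.42 ± 0.08, was close to a call (adjusted p = 0.0605). Cdh10 had 11.8, 13.8, 24.9 and 116.9 CPM, a rank order that rests on a high E15 sum, with a slope of 1.09 ± 0.32 (adjusted p = 0.173). Cdh13 (T-cadherin), which is held by a lipid anchor and lacks an inner domain, had 104.3, 65.3, 20.8 and 0.221 CPM, lower on each later day (slope -2.29 ± 0.84, adjusted p = 0.267). DESeq2 called the slopes of Cdh2 and Cdh10. Of the N1d cells at 24 h, 96.02%, 78.6%, 10.5% and 1.53% were in N1d.early from E12 to E15, so day and cluster move together here too. Over whole clusters Cdh2 had 230.5 CPM in N1d.early and 397.3 CPM in N1d.late, and Cdh13 77.2 and 23.5 CPM.

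In N4d cells these rank orders were not kept, though no member was called for the difference between the slopes in edgeR. Cdh13 had 122.03, 51, 99.6 and 29.3 CPM, Cdh10 had 40.1, 18.5, 75.8 and 48.7 CPM and Cdh2 had 432, 387, 415 and 533 CPM. The E12 and E14 sums stood above E13 and E15 for Cdh13. Pcdh10 had 23.8, 11.6, 33.8 and 81.8 CPM, highest at E15 as in AP cells (94.5 CPM). Its slope of 0.62 ± 0.22 was not called (adjusted p = 0.462). Clusters were unevenly spread over the days here as well. N4d.late1 held 63.98% of the N4d cells of E14 at 96 h and 2.78% of those of E12. N4d.early1 held 14.6% at E12 and 4.33% at E13.

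**Figure D4:**
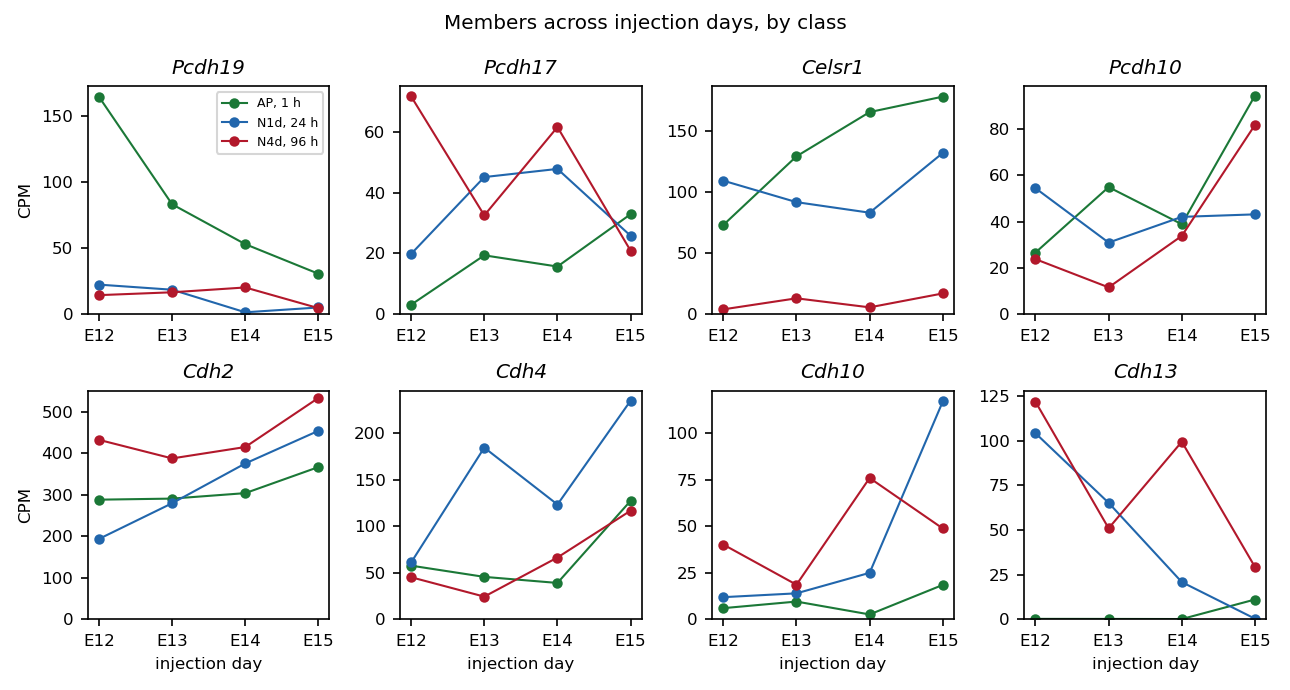
CPM of 8 members at injection days E12 to E15 in the main class of each time (AP, 1 h; N1d, 24 h; N4d, 96 h); each point is 1 condition. In AP cells Pcdh19 is highest at E12 and lowest at E15, in N1d cells Cdh2 is lowest at E12 and highest at E15, and in N1d cells Cdh13 is highest at E12 and near 0 at E15.

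Across the 15 clusters several members stood high in particular clusters. The clusters hold unequal shares of the injection days, so levels are given mainly within a condition, for sums of at least 10 cells and with no test. In the 21 N4d.early1 cells of E12 at 96 h Cdh13 had 439 CPM and Pcdh7 408 CPM. The N4d.early2, N4d.late2, IN.1 and IN.2 cells of the same condition had 26.2 to 80.1 CPM of Cdh13 and 21.98 to 69.05 CPM of Pcdh7. Both were spread over cells: at 96 h Cdh13 was read in 23 of 30 N4d.early1 cells and Pcdh7 in 24. Neither was confined to this cluster. Over whole clusters, which mix days, N4d.late1 came next, with 141.7 CPM of Cdh13 and 253.1 CPM of Pcdh7. Pcdh7 also had 66.5 CPM in N1d.early and 94 CPM in N1d.late.

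Within E14 at 96 h Pcdh20 stood at 56.98 CPM in N4d.late1, against at most 1.29 CPM in N4d.early2 and N4d.late2, 5.46 CPM in IN.1 and 16.2 CPM in IN.2. The clusters thus differed within 1 day and time. Of the N4d.late1 cells, 92.5% came from E14 at 96 h, and 36.3% of them had Pcdh20 reads; the other days at 96 h hold 4, 1 and 6 cells of this cluster. In the same condition Fat3 had 206.3 CPM in N4d.late1, against 35.6 CPM in N4d.early2 and 65.5 CPM in N4d.late2, and Cdh10 had 117.8 CPM in N4d.late1, against 7.08 CPM in N4d.early2 and 27.1 CPM in N4d.late2. Cdh12 had 183.8 CPM in N4d.late1 and 182.1 CPM in N4d.early2, so this pair of clusters had nearly the same level, and 53.3 CPM in N4d.late2.

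Pcdh19 varied between days within a progenitor cluster. At 1 h AP.early cells of E12 had 169.8 CPM, and AP.late cells had 220.1 CPM at E13, 171.2 CPM at E14 and 26.03 CPM at E15. The E13 and E14 sums of AP.late rest on 15 and 18 cells. In inhibitory neurons at 96 h Pcdh19 had 183.6, 27.05, 101.9 and 30.6 CPM in IN.1 from E12 to E15, above IN.2 on each day, where it was at most 60.6 CPM. It was read in 38.5% of IN.1 cells and 10.4% of 77 IN.2 cells. Cdh22 had 57.4 CPM in IN.2 cells of E12 at 96 h and 19.4 CPM in those of E15 at 1 h, against at most 5.63 CPM in every other sum of at least 10 cells, but a single cell gave 76.8% of its IN.2 reads at 96 h. Pcdh18 had 29.96 CPM in N4d.late2 of E15 at 96 h and 10.1 CPM at E13, and at most 3.93 CPM in the other N4d sums.

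**Figure D5:**
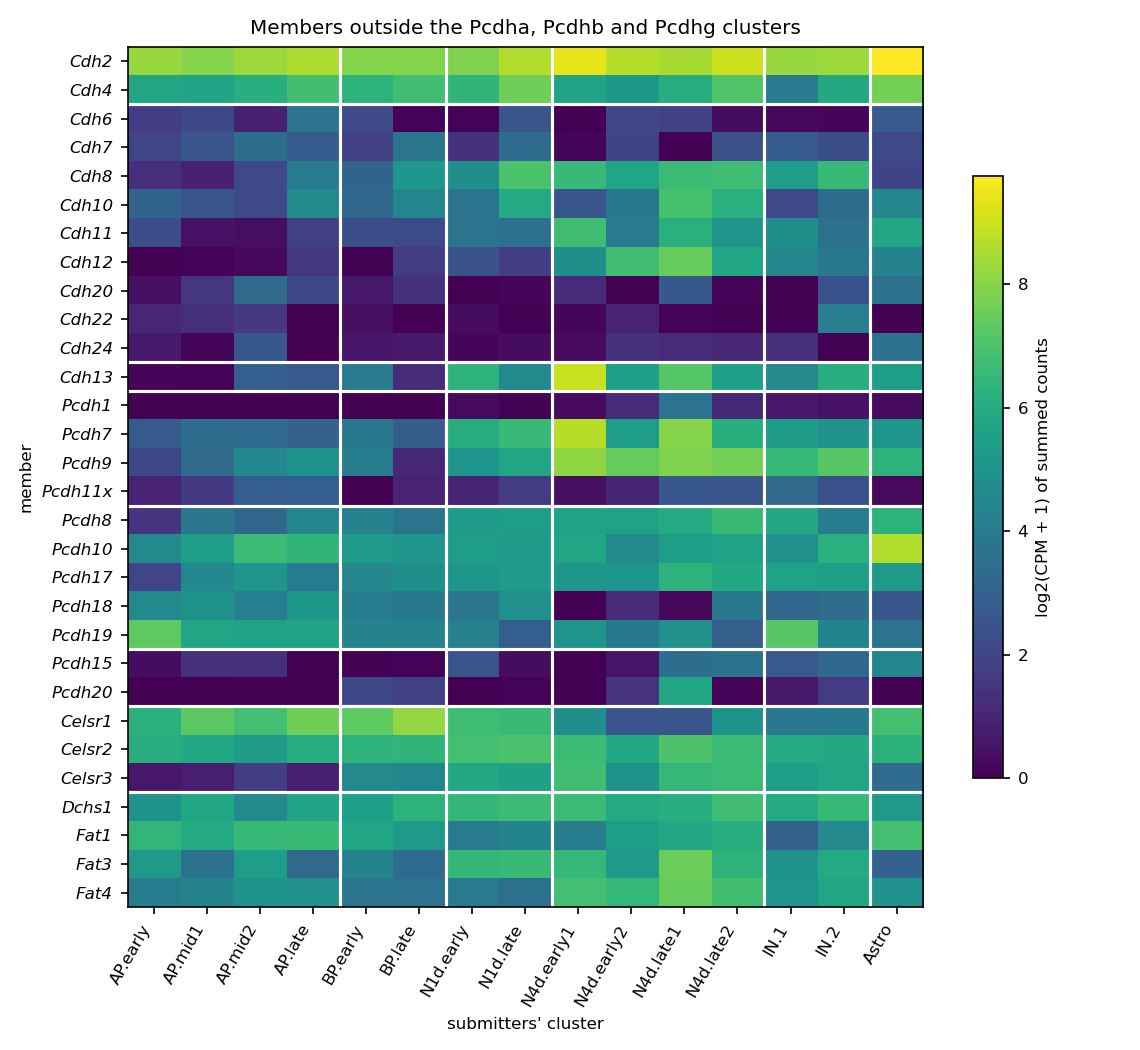
Level of the 30 members outside the Pcdha, Pcdhb and Pcdhg clusters, as log2(CPM + 1) of counts summed over each of the 15 cell clusters; rows are grouped by branch and columns by class, with white lines between them. Cdh2 is high in all columns and Pcdh20 stands out in N4d.late1. Celsr1 is higher in progenitors, N1d and Astro than in N4d and IN, and Celsr3 is lowest in AP and highest in neurons.

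IN and N4d cells were then set against each other within each 96 h condition, again between classes drawn from the same expression values. IN cells were also present 1 h after labelling (10 IN.1 and 23 IN.2 cells at E15). The classes therefore share a collection time but need not share an age. Of 31 members tested 1 was called, against 2.24% of 9362 genes. Cdh12 had 32.5, 1.32, 24 and 19 CPM in IN cells, against 115.9, 58.8, 171.5 and 91.5 CPM in N4d cells. Each IN sum was under each N4d sum, at a log2 change of -2.91 ± 0.59 (adjusted p = 0.0339), and a single cell gave 33.6% of the Cdh12 reads of IN cells. Without E12, E14 or E15 the adjusted p was 0.104, 0.156 and 0.0543, and without the block for injection day it was 0.108. Fat1 had 15.1, 11.1, 3.59 and 0.851 CPM in IN cells, against 18.1, 77.8, 47.6 and 44 CPM in N4d cells. It was lower in IN cells on each day without overlap, but not called (log2 change -3.08 ± 0.93, adjusted p = 0.162). Cdh2 had 324, 345, 236.5 and 328 CPM in IN cells, against 432, 387, 415 and 533 CPM in N4d cells, also without overlap or call (-0.48 ± 0.16, adjusted p = 0.23). DESeq2 called Cdh10, Fat1 and Pcdh7 beside Cdh12.

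N4d.late2 and N4d.early2 were the N4d clusters with at least 10 cells on all 4 days at 96 h. None of 29 members tested was called between them in edgeR, against 1.04% of 9230 genes. In that test 11 members had an unadjusted p under 0.05, against 15.3% of all genes. DESeq2 called 9 members. The Celsr sum was 366, 256.5, 253.6 and 144.7 CPM in N4d.late2 and 101.7, 90.9, 87.6 and 68.7 CPM in N4d.early2, separate on all days. Cdh4 had 72.5, 52, 138.2 and 175.96 CPM in N4d.late2, against 34.7, 19.9, 55.5 and 55.8 CPM in N4d.early2, higher on each day with overlap between days (log2 change 1.33 ± 0.34, adjusted p = 0.092). Cdh12 was the other way round, with 89, 17.5, 53.3 and 60.04 CPM in N4d.late2, against 137.7, 69.9, 182.1 and 112.97 CPM in N4d.early2 (-1.35 ± 0.35, adjusted p = 0.0986). Cdh10 had 147.6, 22.1, 27.1 and 87 CPM in N4d.late2, against 15.1, 16.3, 7.08 and 7.29 CPM in N4d.early2, without overlap (2.32 ± 0.67, adjusted p = 0.123). AP markers also differed, at 877 CPM in sum in N4d.late2 and 261.6 CPM in N4d.early2, and their part in these values was not tested.

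Astro cells were described without a test, since 54 of the 64 came from E15 at 96 h. Their markers stood out, with 6 astrocyte markers at 7320 CPM in sum. Their level of Cdh2 was 898 CPM (95% exact Poisson interval 884 to 912). AP.late cells of E15 at 1 h had 348 CPM (342 to 354) and N4d cells of E15 at 96 h 533 CPM (526 to 540). The intervals take each read as independent. They cover counting error only, not copies made by amplification or the spread between cells. Pcdh10 stood at 395 CPM (386 to 404) in Astro cells, against 83.8 CPM (80.9 to 86.8) in AP.late and 81.8 CPM (79.01 to 84.6) in N4d cells. It was read in 48 of the 54 cells, none of which gave more than 6.87% of its reads. Pcdh15, a protocadherin best known from hair cells of the inner ear, had 22.5 CPM (20.4 to 24.8) in Astro cells. Pcdh15 had 4.16 CPM (3.55 to 4.84) in N4d cells and 0 counts in AP.late cells. This level was not particular to Astro cells. IN cells of E15 at 96 h had 26.1 CPM of Pcdh15, and N4d.late2 cells of E14 at 96 h had 29.5 CPM. Celsr1 stood at 122.1 CPM in Astro cells, 212.7 CPM in AP.late and 17.03 CPM in N4d cells, and Fat1 at 130.3, 97.1 and 43.98 CPM in the same order. The 7 Astro cells of E14 at 96 h had 875 CPM of Cdh2, 376 CPM of Pcdh10 and 23.5 CPM of Pcdh15, so these 3 levels recurred in a second condition. Other members differed between the days. Fat1 was at 58.7 CPM in Astro cells of E14, under its AP.late level. Celsr3 was at 38.7 CPM in Astro cells of E14 and 6.58 CPM in those of E15, Cdh13 at 153.2 and 29.9 CPM and Fat4 at 100.1 and 22.1 CPM in the same order. Cdh11 was at 63.9 CPM in Astro cells of E15 and had 0 counts in the 7 cells of E14, which are too few to set a bound.

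Between genes, levels can be set side by side only per length, here per kilobase of exon in GENCODE vM21, and only if reads cover whole transcripts, which the sources used here do not settle. On that scale Cdh2 led in all 3 classes, with 38.7 CPM per kilobase in AP, 40.3 in N1d and 54.8 in N4d cells. In AP cells it was followed by Celsr1 (12.4), Cdh4 (9.28), Pcdh19 (7.92) and Pcdh18 (5.59). In N1d cells Cdh4 (20.8), Cdh8 (10.6) and Celsr2 (10.5) came next, and in N4d cells Pcdh9 (27.7), Cdh12 (17.4) and Pcdh8 (13.3), all in CPM per kilobase.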

How the data were processed

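Single cortical cells were captured on C1 HT chips and sequenced on a HiSeq2500, per the labels' protocols. The deposited table holds raw read counts per gene and cell. The submitters' processing notes name GRCm38, TopHat2 2.0.13 and UMI-tools; the counter, its annotation, strand use and the part of the transcript read are not given in the sources used here. Counts were summed over the cells of each condition or class, 52.3 M to 99.04 M a condition, which sets the precision of low genes. Genes with at least 10 CPM in at least 3 sums were tested with edgeR 4.0.16 (TMM, quasi-likelihood test, Benjamini-Hochberg over all genes tested) in R 4.3.3. Errors are SE of the log2 change or SD over 4 injection days. Lineage sums of 12 conditions were fitted together, class slopes together, and contrasts within 24 h or 96 h with injection day as a block. Alternatives were DESeq2 1.42.0, its size factors, no filter, equal weight per cell, other cell sets and leaving out each sum. The fits were tested on simulated data. The members and lists were chosen with earlier results of these data known. Members named were those called (up to 10 a direction, mean of at least 20 CPM) or with at least 20 CPM in a class, the 3 highest clustered genes and up to 6 partners a comparison; Pcdh20 and Cdh22 were chosen after their values were seen. No animals are named, so p-values measure the spread between these samples, which may be partly technical. Python 3.11.15 was used for sums.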

Additional observations from a re-analysis of the deposited data

Results flagged for a closer look

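In BP cells at 24 h, Celsr1 had 553.2 CPM for E14, far from the 217.6 to 261.4 CPM of the other 3 days. Of 38 sets of 4 values that were examined this way, it is the one where the highest or lowest sample stood apart (its gap is 0.87 of the whole range, above 0.829), and chance gives about 1 in 20 such sets. The E14 sum holds 8 BP cells.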

How the results depend on the processing

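The 19 calls of members kept their direction in all 325 alternatives and lost the call in 47 of them, and 9 of the 19 kept it throughout. The number of members called moved by over 1.5 times in these cases. With the main class of each time only, 17 were called between 24 h and 1 h. DESeq2 called 2 for the AP slope, 2 for the N1d slope, 1 for the N4d slope, 1 for BP against AP, 6 for N1d against BP, 4 for IN against N4d and 9 for N4d.late2 against N4d.early2. Shares of all genes called by DESeq2 are not given here. With no filter on low counts, N1d against BP and IN against N4d had 0 calls each, and without the block for injection day IN against N4d had 0. With sums of at least 20 cells, BP against AP had 1 and N1d against BP had 2. Leaving out single sums or days gave 0 to 2 calls for the AP slope, 0 to 0 for N1d against BP and 0 to 1 for IN against N4d. It moved the larger counts by no more than 1.5 times, to 6 to 10 for 24 h against 1 h and 6 to 9 for 96 h against 24 h. The slope of Cdh4 in N4d cells turned to -0.025 with the code in the titles as a block; the cause was not tested. No paired analysis was possible because the labels give no replicate numbers and name no animals, so each condition is 1 sample; injection day served as a block where classes share a condition. The 38 members under the filter of 10 CPM in at least 3 sums were described or left without a test.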
